A study of Homo sapiens with 6 samples.

Results

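The S100 genes encode small calcium-binding proteins, and 10 of them are described here: S100A2, S100A3, S100A4, S100A6, S100A10, S100A11, S100A13, S100A14, S100A16 and S100P. They were chosen by gene symbol, and all 10 were present among the 54261 gene symbols of the count table. RNA was sequenced from 2 groups of 3 libraries of T24, an established cell line from a human bladder carcinoma. Control cells carried a lentivirus (HBLV-ZsGreen-PURO, labelled negative control), and knockdown cells carried a lentivirus of the same kind that expresses a hairpin targeting MTHFD2 (MTHFD2-shRNA2), which encodes a mitochondrial enzyme of folate metabolism. Cells of both groups were selected with puromycin and express the ZsGreen reporter of the vector. A single hairpin was profiled in a single line. The series' design text says knockout, while its labels name a hairpin. Replicates carry numbers only, so p-values measure the spread between these libraries, which may be technical.

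S100 proteins form dimers, and each chain holds a pair of EF-hand loops, the helix-loop-helix fold that grips calcium. When calcium rises, most of them open a greasy cleft and bind a target such as an annexin, a cytoskeletal protein or a kinase. S100A10 is the exception: its loops have lost calcium binding, and it is held in the open form, where it joins annexin A2 at the membrane. Several S100 proteins are also released from cells and act on receptors such as AGER (the receptor RAGE), TLR4 and BSG. Most of the genes sit side by side on chromosome 1 among genes of the outer skin layer, whereas S100P lies on chromosome 4.

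After MTHFD2 knockdown no S100 gene passed the edgeR test at an adjusted p under 0.05, beside 17.3% of all genes tested. Levels of S100A2, S100A11 and S100A10 were nevertheless 29.3%, 27.7% and 23.8% below the controls in the fitted means. All 3 had an unadjusted edgeR p under 0.05, where 15.7% of all genes tested were lower. For S100A6 and S100A13 the fitted means differed by -3.0% and -5.8%, and their libraries interleaved. Within each library S100A10 and S100A11 were lower relative to S100A6 in all 3 knockdown libraries. These ratios were examined after the levels had been seen. Of genes with a mean of at least 10 CPM in the controls, 10.7% had a lower ratio to S100A6 without overlap. S100P was listed at 0 counts throughout, and S100A3, S100A4 and S100A14 were close to the limit of detection.

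Promoter sequence is shown for the 3 S100 genes with the highest levels per length and for S100P, the undetected one, since these 4 mark the ends of the range. Each line runs 5′ to 3′ on the gene's strand, from 250 bases before to 50 bases after the RefSeq start site (GRCh38.p14). Capitals mark matches, on either strand, to the GC box GGGCGG, the TATA box TATAAA or the AP-1 motif TGANTCA, and matches to different motifs did not overlap.
S100A6: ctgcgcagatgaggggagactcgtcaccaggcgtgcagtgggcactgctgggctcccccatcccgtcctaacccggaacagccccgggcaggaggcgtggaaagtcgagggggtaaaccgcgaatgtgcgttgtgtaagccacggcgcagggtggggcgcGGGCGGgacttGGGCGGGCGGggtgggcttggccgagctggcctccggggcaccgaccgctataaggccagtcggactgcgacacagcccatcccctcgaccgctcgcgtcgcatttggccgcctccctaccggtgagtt
S100A11: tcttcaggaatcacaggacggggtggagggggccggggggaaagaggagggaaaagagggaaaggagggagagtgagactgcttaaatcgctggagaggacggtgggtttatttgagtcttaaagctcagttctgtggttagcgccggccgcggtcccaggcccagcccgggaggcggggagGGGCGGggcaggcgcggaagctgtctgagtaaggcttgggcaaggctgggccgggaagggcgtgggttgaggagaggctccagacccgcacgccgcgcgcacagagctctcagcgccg
S100A10: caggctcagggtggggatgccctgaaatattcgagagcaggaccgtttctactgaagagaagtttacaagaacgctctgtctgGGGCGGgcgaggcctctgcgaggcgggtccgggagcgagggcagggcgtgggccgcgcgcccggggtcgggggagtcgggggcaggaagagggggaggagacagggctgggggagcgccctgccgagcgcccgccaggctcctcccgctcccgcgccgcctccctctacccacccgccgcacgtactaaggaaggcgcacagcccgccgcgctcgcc
S100P: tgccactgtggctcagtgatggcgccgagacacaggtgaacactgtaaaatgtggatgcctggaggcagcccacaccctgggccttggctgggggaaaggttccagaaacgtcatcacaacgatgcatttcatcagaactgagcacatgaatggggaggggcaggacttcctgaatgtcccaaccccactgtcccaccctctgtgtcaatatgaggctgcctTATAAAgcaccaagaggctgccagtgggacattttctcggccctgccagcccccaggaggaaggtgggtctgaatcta

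The windows are chr1:153535942-153536241 for S100A6, chr1:152036955-152037254 for S100A11 and chr1:151993810-151994109 for S100A10, all on the minus strand, and chr4:6693628-6693927 on the plus strand for S100P. The S100A6 window holds 31 CpG dinucleotides and 3 GC boxes, which start 90, 79 and 75 bases upstream of the start site, and the last 2 of them overlap and form a single run of capitals. S100A10 has 1 GC box and 32 CpG dinucleotides, and S100A11 has 1 and 22. S100P has no GC box, 5 CpG dinucleotides and a TATA box that starts 28 bases upstream. Over all 35116 promoters of this length, 45% hold GGGCGG, 11.5% hold TATAAA and 7.71% hold TGANTCA, and the median is 14 CpG dinucleotides. Among the 10 S100 windows, 5 hold a GC box, 2 a TATA box (S100A4 and S100P) and 1 the AP-1 letters (S100A3). The remaining windows had between 4 (S100A2) and 12 (S100A13) CpG dinucleotides. S100A16, next in level per length after S100A10, had 8 CpG dinucleotides and 1 GC box. S100A3, close to the limit of detection, had 5 CpG dinucleotides and 1 GC box. A link between these letters and the levels was not tested. A match is a string of letters and not a measured binding site.

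Abundance divided the family sharply. Levels of different genes are compared here as CPM, the counts of a gene scaled to a common library total, divided by the length in kilobases of all annotated exons. S100A11 led with 928 ± 145 CPM per kb in the controls (SD, n = 3), followed by S100A6 with 748 ± 120, and the ranges of these neighbours overlapped. S100A10 (407 ± 61.4 CPM per kb) and S100A16 (361 ± 45.5) also overlapped one another and lay below both. S100A13 followed at 125 ± 21.8 CPM per kb and S100A2 at 13.2 ± 2.13, each apart from its neighbours in the order. The last detected members were S100A4 (0.978 ± 0.184 CPM per kb) and S100A3 (0.808 ± 0.0872), which overlapped, and then S100A14 (0.405 ± 0.161). With the median length of the coding transcripts in place of all exons, a length chosen after seeing the data, S100A6 and S100A11 changed places at 1090 and 1060 CPM per kb. S100A13 then rose to 491 CPM per kb, and the order was otherwise kept. The 10 genes together took 0.262%, 0.26% and 0.321% of all counts in control replicates 1 to 3 and 0.241%, 0.208% and 0.295% after knockdown, so the groups overlapped.

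The total per library ranged from 17801990 to 19978392 counts, at which a count of 0 allows up to 3 counts, or 0.149 to 0.171 CPM. The target MTHFD2 was at 185, 188 and 181 CPM in the controls and at 26.7, 33.6 and 36.7 CPM after knockdown (log2 fold change -2.51 ± 0.13, SE). Of 13896 genes tested with edgeR's quasi-likelihood test on all 6 libraries, 17.3% passed at a Benjamini-Hochberg adjusted p under 0.05, and 9 S100 members were among those tested. All 9 passed the filter on low counts, and S100P was the member that did not. Of the epithelial markers, KRT7, KRT8 and KRT18 were abundant, while KRT20 and UPK3A had no counts and GATA3, CDH1 and EPCAM had means under 1 CPM. The 18 epithelial markers, of which 16 had a count, summed to 2110 to 2520 CPM in the controls and to 1000 to 1320 CPM after knockdown, without overlap. KRT18, KRT8 and KRT7 made up most of that sum (means of 1190, 825 and 210 CPM in the controls), and KRT7 overlapped between the groups. Of the 6 tested among them, KRT8 (-1.27, adjusted p = 0.000191) and KRT18 (-0.89, adjusted p = 0.00157) fell and UPK1A rose (1.72, adjusted p = 0.0141) in edgeR on the log2 scale. The part of these differences in epithelial markers in the S100 levels was not tested. Knockdown replicates 1 and 3 held the most of several transcripts typical of fibroblasts. COL1A2 was at 11 and 8.57 CPM there, at 1.56 CPM in knockdown replicate 2 and between 1.37 and 1.66 CPM in the controls. COL6A3 in knockdown replicate 2 also lay within the control range. COL1A1 (4.84 CPM, controls 3.19 to 3.64) and SPARC (1.61 CPM, controls 0.531 to 1.3) lay above every control in that library. The 14 fibroblast markers, each with at least 1 count, summed to 139 to 158 CPM in the controls and 120 to 170 CPM in the knockdown libraries. Most of that sum came from FBLN1, which was lower in all 3 knockdown libraries but did not pass (-0.30, edgeR adjusted p = 0.0637). Of the 8 fibroblast markers tested 5 rose, beside 9.71% of all genes tested. Of 14 leukocyte markers 12 had a count, and they summed to 2.66 to 2.91 and 1.84 to 3.73 CPM, while the 9 endothelial markers summed to 2.39 to 3.33 and 1.23 to 1.76 CPM.

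S100A10, which anchors annexin A2 at the plasma membrane and binds the giant scaffold AHNAK, was at 580, 567 and 737 CPM in control replicates 1 to 3 and at 435, 410 and 590 CPM in knockdown replicates 1 to 3. The third library was the highest in both groups, and knockdown replicate 3 lay above control replicates 1 and 2, so the groups overlapped. Fitted with edgeR, S100A10 differed by -0.39 ± 0.15 (log2, SE), with an adjusted p of 0.0948. S100A10 spans 151982915 to 151994390 on chromosome 1 (GRCh38, minus strand).

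S100A11, which binds annexin A1 and acts in membrane repair and keratinocyte growth control, was at 588, 561 and 744 CPM in the controls and 466, 354 and 549 CPM after knockdown. Every knockdown library lay below every control, though knockdown replicate 3 by a narrow margin. The edgeR estimate for S100A11 was -0.47 ± 0.16 (log2, SE) at an adjusted p of 0.0633. S100A2, a nuclear S100 protein of epithelia that binds p53, also showed no overlap: the controls held 18.3, 19.4 and 24.5 CPM and the knockdown libraries 15.1, 11 and 17.9 CPM. For S100A2 edgeR gave -0.50 ± 0.18 (log2, SE) at an adjusted p of 0.0735.

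S100A16, a widely expressed member, was at 573, 566 and 703 CPM in the controls and at 535, 427 and 558 CPM after knockdown. The knockdown libraries were all lower, and replicates 1 and 3 came close to the controls. Its estimate in edgeR was -0.28 ± 0.13 (log2, SE), with an adjusted p of 0.159. Thus 3 of the 9 tested members (S100A2, S100A11 and S100A16) did not overlap between the groups, beside 39.1% of all genes tested that did not and 19.0% that did not with the knockdown lower, and no member lay wholly above its controls.

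S100A6, also called calcyclin, which binds the ubiquitin ligase adaptor CACYBP, was at 658, 660 and 860 CPM in the controls and at 674, 557 and 881 CPM after knockdown. The highest library of all was a knockdown library and the lowest was another, so the groups interleaved. In edgeR the difference was -0.04 ± 0.16 (log2, SE; adjusted p = 0.876), and it turned to 0.18 ± 0.11 once trends on gene length and GC content were removed. S100A13, which helps to export FGF1 and interleukin 1 alpha from cells without a signal peptide, was at 244, 254 and 332 CPM in the controls and 256, 206 and 320 CPM after knockdown. These groups also interleaved, with an edgeR difference of -0.09 ± 0.16 (log2, SE; adjusted p = 0.742) that became 0.03 ± 0.12 without length and GC trends. S100A13 shares 235 exonic bases with S100A1 on the opposite strand and 536 with the transcript AL162258.1 on its own, so its counts are uncertain, and whether the counting used strand is not given in the sources used here.

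**Figure D1:**
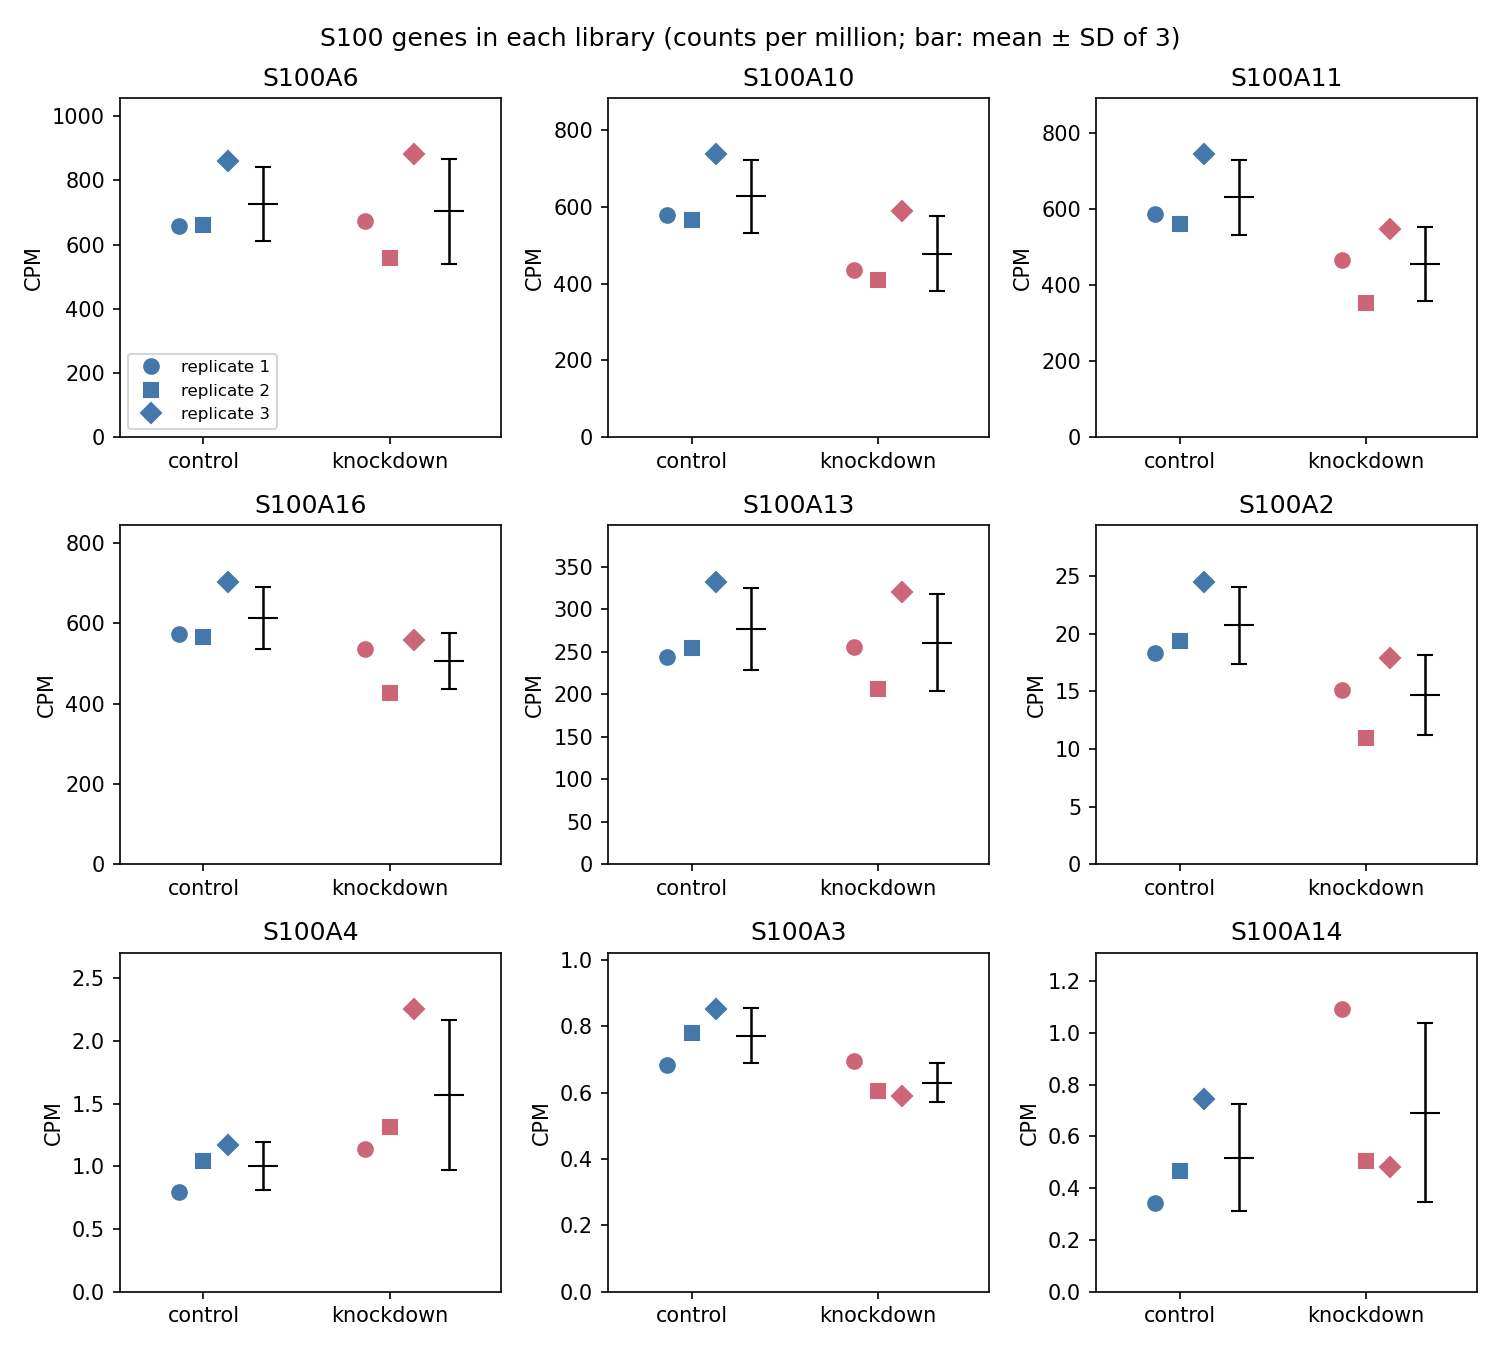
Levels in CPM (y axis, linear from 0) of the 9 detected S100 genes in each control and knockdown library (x axis), with marker shapes for replicates 1 to 3 and a bar for the mean ± SD of 3. Replicate 3 is the highest library of its group for S100A6, S100A10, S100A11, S100A13, S100A16 and S100A2 in both groups, and knockdown replicate 2 is the lowest for the same 6 genes.

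The other members were near the limit of detection. S100A4, known as a fibroblast and metastasis-associated protein that binds non-muscle myosin, held 14, 20 and 22 counts in the controls and 23, 26 and 42 after knockdown, or 0.798, 1.04 and 1.17 CPM against 1.14, 1.31 and 2.25 CPM. Knockdown replicate 3 stood apart from the other libraries, and knockdown replicate 1 fell within the control range. By edgeR it differed by 0.63 ± 0.34 (log2, SE; adjusted p = 0.217), and by 0.28 without knockdown replicate 3. Knockdown replicates 1 and 3, with the lowest and the highest S100A4 of their group, both held more collagen transcripts than the controls. Between them, COL1A2 was higher in replicate 1 (11 and 8.57 CPM) and COL3A1 in replicate 3 (4.03 and 4.66 CPM). The part of those transcripts in the S100A4 level was not tested.

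S100A3, best known from hair cuticle, held 12, 15 and 16 counts in the controls and 14, 12 and 11 after knockdown (log2 fold change -0.29 ± 0.34, SE; edgeR adjusted p = 0.587). Its ranges overlapped, at 0.684 to 0.85 CPM against 0.589 to 0.696 CPM. S100A14, an epithelial member, held 6, 9 and 14 counts against 22, 10 and 9 (0.42 ± 0.46, SE; edgeR adjusted p = 0.558), and its higher mean lay in knockdown replicate 1: without that library the log2 fold change was -0.08. S100P, a placental S100 protein that binds ezrin, had 0 counts in all 6 libraries.

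As a family, 7 of the 9 tested members had a log2 fold change below 0 and 2 above, and their median was -0.28, beside a median of 0.01 over all genes tested, of which 49.2% lay below 0. At an unadjusted edgeR p under 0.05, 3 members (S100A2, S100A10 and S100A11) were lower, beside 15.7% of all genes tested. DESeq2 called the same 3 lower (adjusted p = 0.0461, 0.041 and 0.0167), where it called 9.11% of 14019 genes lower. In edgeR these 3 passed without knockdown replicate 3 (adjusted p = 0.0318, 0.0185 and 0.0251), where 8.29% of genes were called lower, and without the low-count filter (adjusted p = 0.0083, 0.0148 and 0.00234), where 5.44% were. None passed without control replicate 1, 2 or 3 (7.03%, 11.8% and 6.92% of genes called) or without knockdown replicate 1 or 2 (18.4% and 10.4%). None passed either with RLE scaling (17.4% of genes called), library totals without TMM (17.0%), a filter of 1 CPM in 3 libraries (18.5%) or a threshold of 0.01 (5.39%). With knockdown replicate 2 alone against the controls, a fit that takes its spread from the controls and assumes that the single library varies as they do, S100A2, S100A10, S100A11 and S100A16 passed at log2 fold changes of -0.92, -0.62, -0.84 and -0.53, where 15.0% of genes were called lower. Without knockdown replicate 2 the same 4 stood at -0.33, -0.29, -0.32 and -0.17, and without control replicate 3 at -0.36, -0.26, -0.34 and -0.17. With length and GC trends removed (26.1% of genes called) no member passed, and the values for S100A10 and S100A11 shrank to -0.23 ± 0.11 and -0.25 ± 0.10 (SE; edgeR adjusted p = 0.138 and 0.093), that for S100A2 to -0.36 and that for S100A16 to -0.12.

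**Figure D2:**
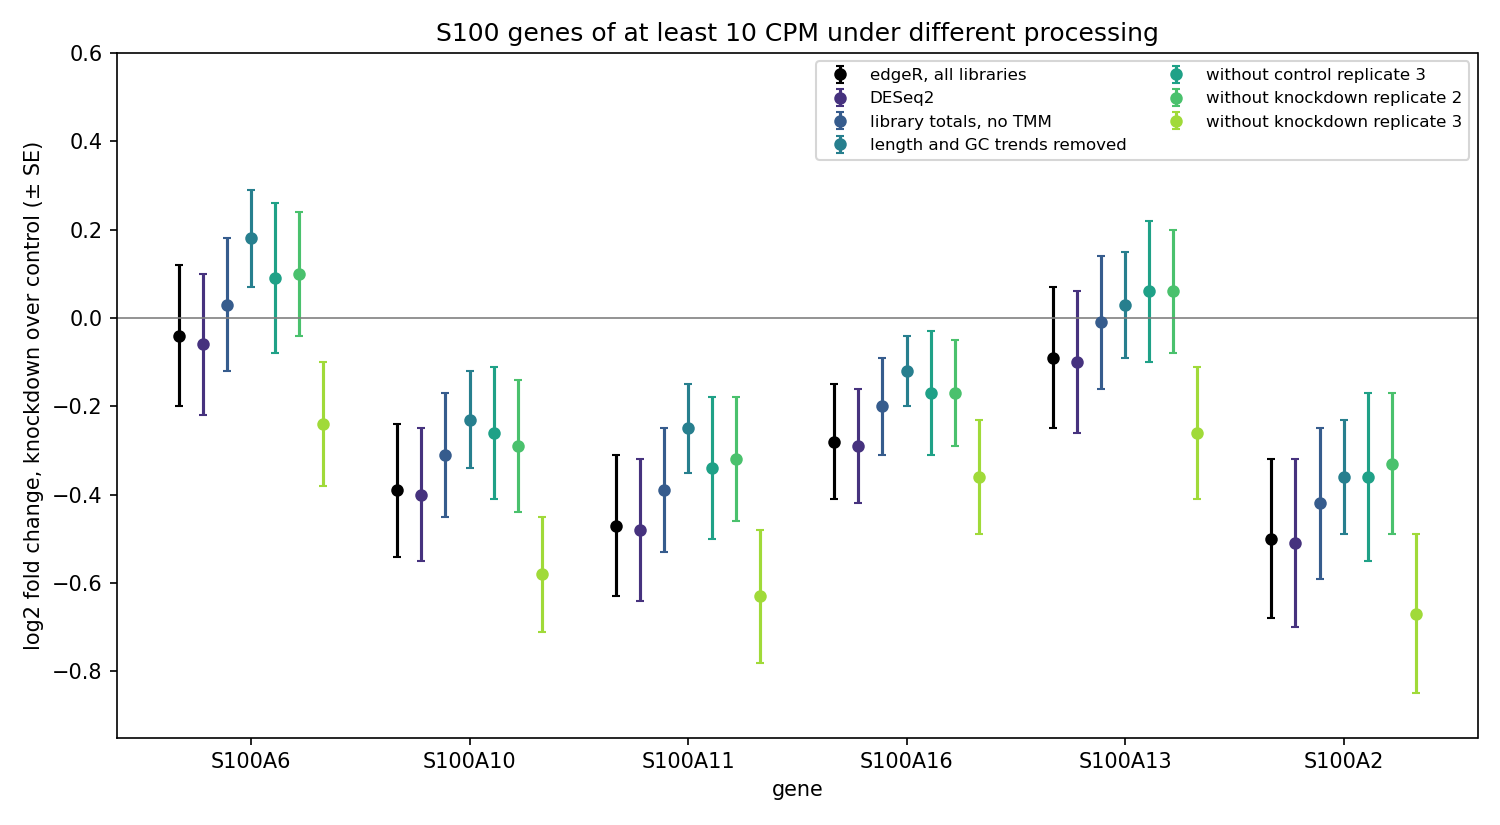
Log2 fold change of knockdown over control (y axis, points with ± SE) for the 6 S100 genes of at least 10 CPM (x axis) with all libraries in edgeR and under 6 other settings. S100A10, S100A11, S100A16 and S100A2 lie below 0 under each setting drawn, while S100A6 and S100A13 cross it; leaving out knockdown replicate 3 lowers all 6 values.

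In 5 of the 6 libraries all 6 abundant members lay on the same side of their group mean. On log2 CPM, all 6 lay above their group mean in control replicate 3 (by 0.2 to 0.28) and in knockdown replicate 3 (by 0.15 to 0.35). All 6 lay below it in knockdown replicate 2, by -0.38 to -0.2, and in control replicates 1 and 2, by -0.17 to -0.08. In knockdown replicate 1 they were divided, from -0.12 to 0.09 with 3 above. The median over all genes tested was between 0 and 0.01 from the group mean in every library, where TMM scaling tends to hold it. How many other genes moved in the same way between libraries was not counted. Dividing by S100A6 within a library narrowed the spread of the other abundant members. For S100A2, S100A10, S100A11 and S100A16 the ratio varied more between knockdown libraries than between controls. For S100A13 the coefficient of variation of the ratio was similar, at 2.3% in the controls and 2.24% after knockdown.

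Divided by S100A6, S100A10 was at 0.88, 0.859 and 0.857 in the controls and at 0.645, 0.735 and 0.67 after knockdown. S100A11 over S100A6 was at 0.893, 0.851 and 0.865 in the controls and at 0.691, 0.635 and 0.623 after knockdown. Neither ratio overlapped between the groups, and the spread between control libraries (coefficient of variation) fell from 15.1% to 1.51% for S100A10 and from 15.6% to 2.48% for S100A11. Between knockdown libraries it fell from 20.4% to 6.83% for S100A10 and from 21.5% to 5.56% for S100A11, but only from 13.7% to 11.8% for S100A16. S100A2 over S100A6 went from 0.0286 ± 0.00081 to 0.0208 ± 0.00133 (SD, n = 3), again without overlap. The ratio of S100A16 was 0.87, 0.858 and 0.818 against 0.793, 0.767 and 0.633, without overlap but with a narrow gap outside knockdown replicate 3, and its log2 difference from S100A6 went from -0.23 to -0.11 without that library. The ratio of S100A13 overlapped, at 0.37, 0.385 and 0.386 in the controls and 0.38, 0.37 and 0.363 after knockdown.

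**Figure D3:**
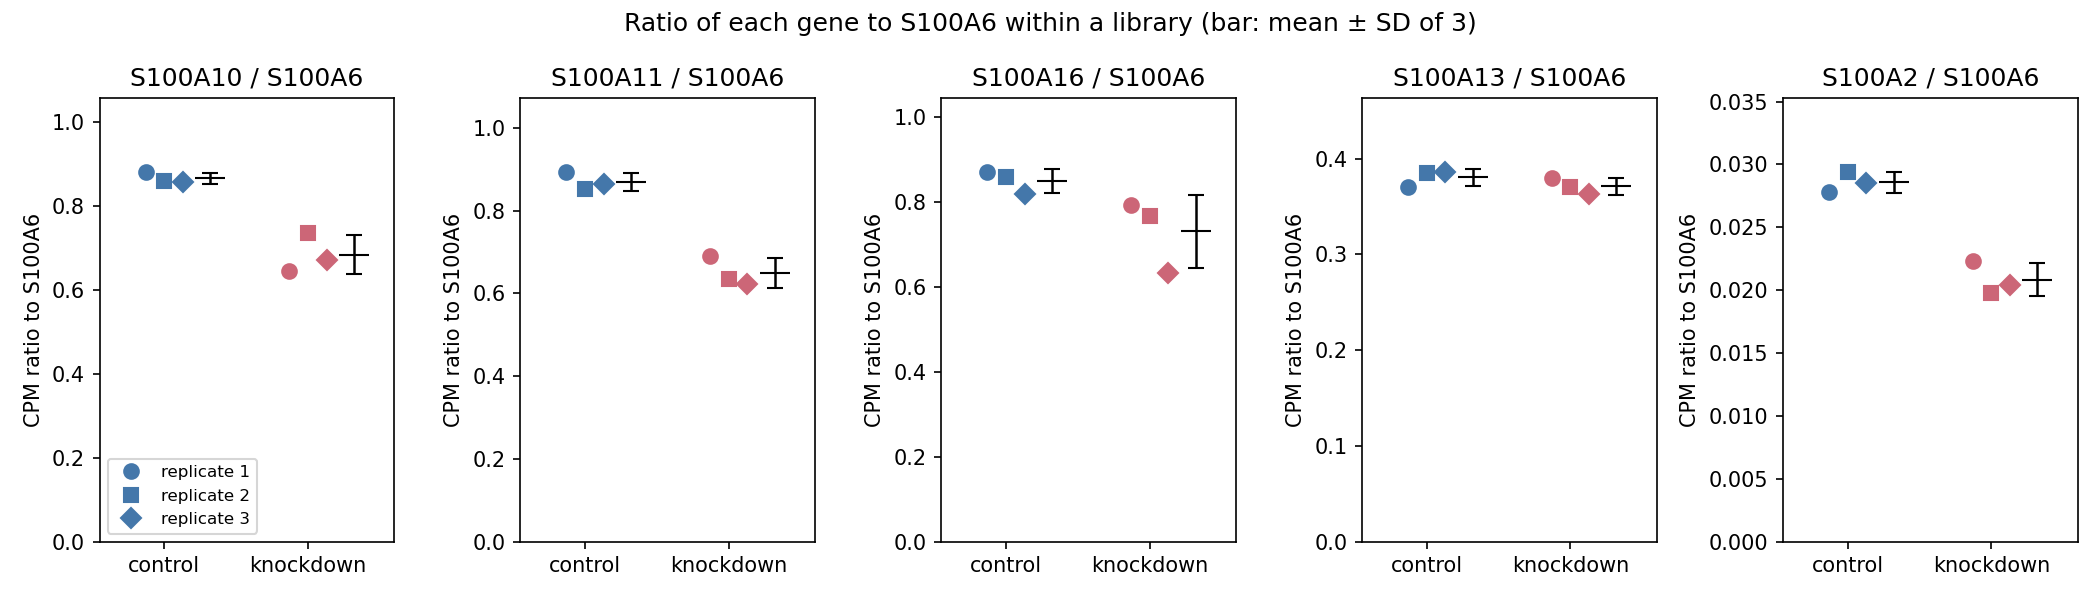
CPM of 5 S100 genes divided by the CPM of S100A6 in the same library (y axis, linear from 0) for control and knockdown libraries (x axis), with marker shapes for replicates and a bar for the mean ± SD of 3. The ratios of S100A10, S100A11, S100A16 and S100A2 do not overlap between the groups, and that of S100A13 does.

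Over the 15 pairs that the 6 abundant members form, 9 ratios did not overlap between the groups, beside 41.8% of all pairs of the 9220 genes with a mean of at least 10 CPM in the controls. The 15 ratios share 6 genes and are not independent. Apart from S100A11 over S100A16, each non-overlapping ratio set S100A6 or S100A13 against another member. The log2 ratio of S100A6 over S100A11 was 0.42 higher after knockdown (SD 0.036 in the controls and 0.079 after knockdown), and that of S100A6 over S100A10 was 0.34 higher. Over S100A13 the differences in log2 ratio were -0.39 for S100A11, -0.31 for S100A10 and -0.42 for S100A2. S100A2, S100A10 and S100A11 overlapped in their ratios to one another, with differences of -0.03 to -0.11 for S100A2 and 0.08 for S100A10 over S100A11. An exact two-sided permutation test gave each non-overlapping pair p = 0.1, the smallest that 3 libraries against 3 allow, and 0.167 after Benjamini-Hochberg adjustment over the 15 pairs. This permutation test therefore cannot go below 0.05 here whatever the size of a difference, and the ratios were examined after the levels had been seen. A ratio shows that 2 genes changed unequally and not which of them changed. Of the genes with a mean of at least 10 CPM, 10.7% had a lower ratio to S100A6 without overlap, beside 4 of the 5 other abundant S100 genes.

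By position, 9 members lie within 1648 kb of chromosome 1 (151982915 to 153631360), all of them on the minus strand. The annotation places 66 other genes with a matched symbol in that span, among them the filaggrin, loricrin and late cornified envelope genes of the skin. Only 6 of those 66 had a count in any library and none reached the tested set. TCHH, which encodes trichohyalin, had the most, with 46 counts over 6 libraries. S100A1, which starts inside the span and ends beyond it (153627926 to 153632039, plus strand), was not among the 66 and was tested.

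Other S100 genes were low or absent. Of 11 further family members 3 had a count, namely S100A1, S100A5 and S100A9, while S100A7, S100A7A, S100A7L2, S100A8, S100A12, S100B, S100G and S100Z were listed at 0. S100A1, a muscle S100 protein, was at 2.38 ± 0.789 CPM in the controls and 2.35 ± 0.425 after knockdown (SD, n = 3; log2 fold change -0.03 ± 0.28, SE), and reads of the overlapping S100A13 could contribute to it. S100A5 held 14 counts over the controls and 2 over the knockdown libraries, a ratio of 0.143 with an exact (Clopper-Pearson) 95% interval of 0.0158 to 0.623 that covers counting error only. It was not among the tested genes. S100A9, a calprotectin subunit of neutrophils, had 3 counts in 1 control library and 1 in each of 2 knockdown libraries.

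Partners were compared from lists chosen with earlier results of these data known. Among 13 annexins, the membrane-binding targets of S100 proteins, 8 were tested: 2 fell and none rose, or 25.0% beside 17.3% of all genes (7.58% lower), and the median log2 fold change was -0.14. ANXA3 went from 115 ± 2.72 to 74.4 ± 5.04 CPM (-0.63 ± 0.10, SE; edgeR adjusted p = 0.00238) and kept its call under all 14 alternatives. ANXA7 fell from 190 ± 10.2 to 147 ± 6.11 CPM (edgeR adjusted p = 0.0214), a call lost without any control library and without knockdown replicate 2 (edgeR adjusted p = 0.0531 to 0.0943). ANXA2 and ANXA1, named for their role and after their values were seen, did not pass: ANXA2 was at 1760 ± 123 and 1720 ± 171 CPM, and ANXA1 at 467 ± 28.0 and 415 ± 57.1 CPM.

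Set against its own annexin, S100A10 over ANXA2 was at 0.343, 0.336 and 0.388 in the controls and at 0.259, 0.26 and 0.309 after knockdown. S100A11 over ANXA1 was at 1.29, 1.26 and 1.49 against 1.16, 0.966 and 1.15. Neither ratio overlapped between the groups, with differences in log2 ratio of -0.37 and -0.3. Such a lack of overlap was found for 41.8% of all pairs of genes with a mean of at least 10 CPM in the controls. The exact permutation p was 0.1 each, the smallest that 3 libraries against 3 allow, and 0.15 adjusted over 3 ratios. The ratio of S100A6 to CACYBP overlapped, at 1.8 to 2.19 in the controls and 1.9 to 2.2 after knockdown.

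Receptors for released S100 proteins ranged in the controls from AGER, listed at 0, to the integrin subunit ITGB1 at 781 CPM, and TLR4 was at 1.76 ± 0.435 CPM in the controls and 2.73 ± 0.258 after knockdown. These 3 were chosen after their values were seen, for their role or their place in the order. Of 12 receptors 9 were tested, and 2 fell and none rose, or 22.2% beside 17.3% of all genes (median log2 fold change 0.10). BSG, an inducer of matrix proteases that binds S100A9, went from 600 ± 61.0 to 462 ± 39.3 CPM (-0.38 ± 0.11, SE; edgeR adjusted p = 0.0409). SDC1, a heparan sulfate proteoglycan, went from 66.2 ± 3.82 to 50.8 ± 5.38 CPM (-0.38 ± 0.11, SE; edgeR adjusted p = 0.0365). Both calls were fragile: BSG kept its call in 2 and SDC1 in 1 of the 6 fits that left out a library. For BSG those without a call had an adjusted p of 0.0588 to 0.165 and for SDC1 of 0.0667 to 0.135.

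Of 38 other binding partners 32 were tested, and 2 rose and 4 fell, or 18.8%, close to the 17.3% of all genes. EZR, the membrane linker bound by S100P, fell by 0.40 on the log2 scale, TPM1, a tropomyosin, by 0.42 and the urokinase receptor PLAUR by 0.37. FGF1, cargo of the S100A13 export complex, fell most (-2.68 ± 0.46, SE; 87 counts over the controls and 14 after knockdown), while S100A13 itself did not pass. The proton-gated channel ASIC1, which S100A10 brings to the membrane, rose from 8.97 ± 0.565 to 15.0 ± 0.607 CPM (0.74 ± 0.13, SE; edgeR adjusted p = 0.00392), and the connexin GJB2 rose from 1.19 to 2.44 CPM. ASIC1 and FGF1 kept their calls in all 6 fits leaving out a library, EZR in 3, TPM1 in 2, GJB2 in 2 and PLAUR in 1. The scaffold AHNAK (-0.35 ± 0.19, SE) and myosin MYH9 (-0.29 ± 0.16), named for their role after their values were seen, did not pass.

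Other EF-hand proteins gave a similar share: 31 of 40 were tested, 2 rose and 5 fell, or 22.6%, with a median of -0.09. EFHD2, an actin-binding calcium sensor (-0.62 ± 0.12, SE; edgeR adjusted p = 0.00694), SDF4 of the Golgi lumen (-0.53 ± 0.12) and PEF1 (-0.52 ± 0.13) fell. EFHD1, a mitochondrial relative of EFHD2, rose from 2.62 ± 0.258 to 5.87 ± 1.13 CPM (1.17 ± 0.21, SE; edgeR adjusted p = 0.00456), and RCN3, a reticulocalbin of the secretory pathway, by 1.01. The actin crosslinker ACTN1 (-0.39 ± 0.12) passed narrowly (edgeR adjusted p = 0.045), with calls in 1 of 6 fits leaving out a library. RCN3 also kept its call in 1 of 6, PEF1 in 4, SDF4 in 5 and both EFHD genes in 6.

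**Figure D4:**
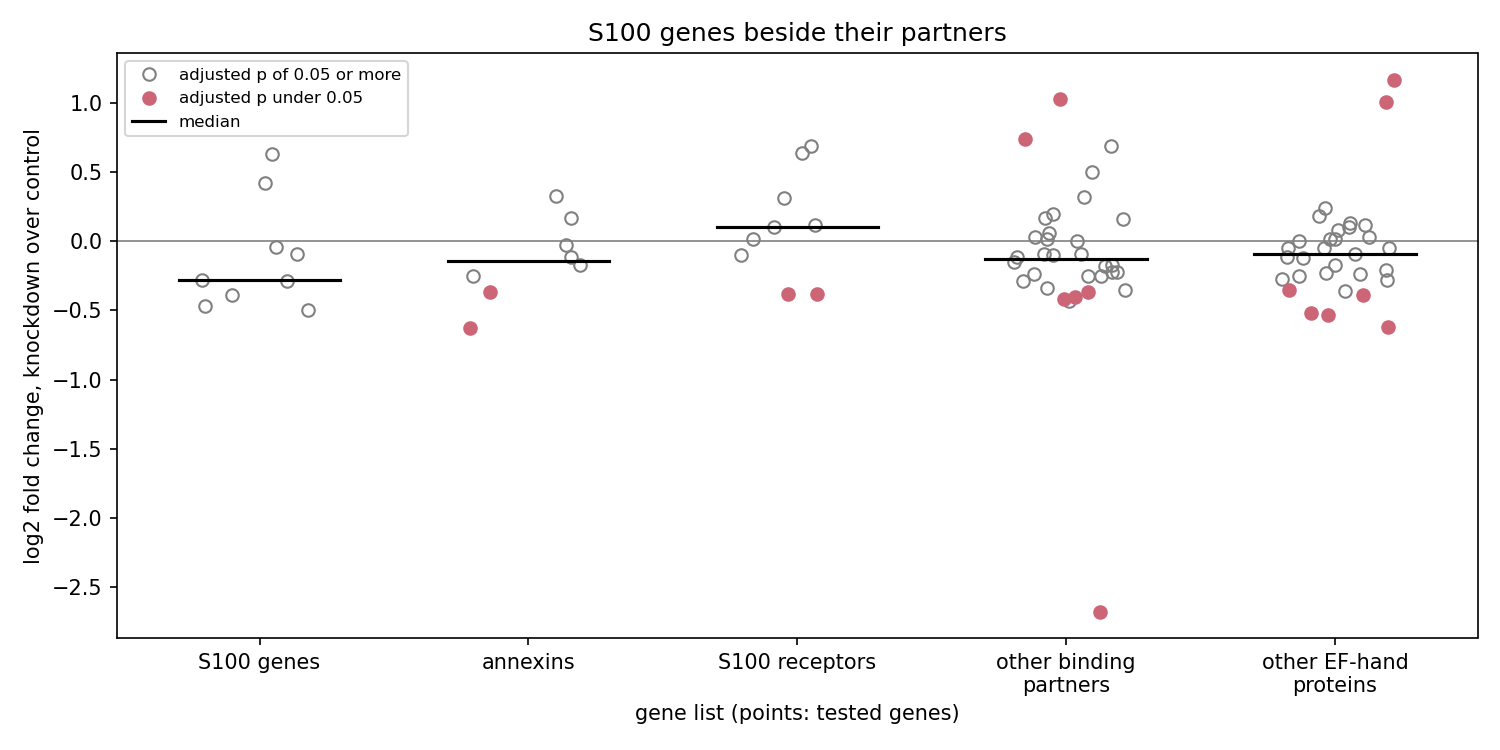
Log2 fold change of knockdown over control (y axis) for each tested gene (points, spread sideways for legibility) of 5 gene lists (x axis), filled where the edgeR adjusted p was under 0.05, with a line at the list's median. The 9 S100 genes hold no filled point and have a median of -0.28, and the lowest point, at -2.68, is FGF1 among the binding partners.

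Among 10223 tested genes whose log2 CPM averaged at least 2 and whose symbol is not a clone name, those whose profile over the 6 libraries came closest to that of S100A11 were GTF3C6, CENPV and NDUFS6. S100A11 was taken for this after its values were seen, since the rule asked for a member past the threshold. Likeness is the root mean square difference in log2 CPM after subtracting each gene's control mean, and it was 0.031, 0.034 and 0.042. S100A2 ranked at place 13 (0.052) and S100A10 at place 168 (0.107), ahead of S100A16 at 532, S100A13 at 2304 and S100A6 at 2760. NDUFS6, a subunit of respiratory complex I, was at 96.0, 92.4 and 129 CPM in the controls and at 76.5, 56.8 and 95 CPM after knockdown. Like S100A11 it was highest in replicate 3 of each group and lowest in knockdown replicate 2, which follows from its choice by profile.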

How the data were processed

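RNA sequencing of 6 T24 libraries was used, 3 control and 3 with an MTHFD2 hairpin, grouped by title. The deposited table holds raw counts per gene as whole numbers. Per the submitters' processing notes, HISAT2 2.0.4 and build GRCh38 were used; the counter, annotation and strandedness are not given in these sources. After filterByExpr and TMM scaling, the quasi-likelihood test of edgeR 4.0.16 (limma 3.58.1, R 4.3.3) was run over all 6 libraries. Its p-values were adjusted (Benjamini-Hochberg) over 13896 genes, and those under 0.05 were called. Standard errors were derived from the F statistic. CPM use TMM-scaled totals, and log2 CPM a prior count of 2. GENCODE release 29 gave coordinates, lengths and GC content (34665 symbols matched), and promoters came from RefSeq (GRCh38.p14; all 10 members matched).

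The members and lists were chosen with earlier results of these data known. All members are named, as is every other S100 gene with a count. From each other list up to 6 called genes were named by size, or 2 abundant ones where fewer than 2 passed. Replicates differed beyond sampling noise (chi-square over degrees of freedom of 2.65 to 34.6), so each library counted once. Floors and intervals reflect counting error alone, because reads lacking molecular identifiers may be copies of 1 molecule. Alternatives were DESeq2 1.42.0, RLE scaling or library totals, other filters, a replicate block, each library left out, knockdown replicate 2 alone, length and GC trends removed (known for 90.1% of tested genes) and a threshold of 0.01.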

Additional observations from a re-analysis of the deposited data

How the results depend on the processing

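The number of S100 members past the threshold was 0 with all libraries, with RLE scaling, with library totals without TMM (chosen after seeing the data), with a filter of at least 1 CPM in 3 libraries, with length and GC trends removed and at a threshold of 0.01. It was 3 with DESeq2, 3 without the low-count filter, 4 with knockdown replicate 2 alone and between 0 and 3 when 1 library was left out (3 without knockdown replicate 3). For the partner and EF-hand lists together the number was 17, with 33 for knockdown replicate 2 alone, 5 at a threshold of 0.01 and between 6 and 21 when 1 library was left out (6 on leaving out control replicate 1 or control replicate 3, 8 for control replicate 2 and 11 for knockdown replicate 2). With the replicate number as a block the numbers were 4 and 34, and 36.4% of all genes were called in either direction. The labels do not say that equal numbers share a culture or day, and the deviations from the group means of same-numbered libraries correlated at -0.02, 0.297 and 0.353 for numbers 1, 2 and 3 over 13896 genes. Control replicate 1 correlated best with knockdown replicate 2 (0.165), whereas control replicates 2 and 3 correlated best with the knockdown library of their own number. Whether equal numbers share a batch was not tested. Of the S100 members and the 17 called partner and EF-hand genes, none with a call in any setting changed direction; for the marker genes and MTHFD2 this was not compared. Members without a call did: S100A6 in 4 of 14 alternatives, S100A13 in 3 of 14 and S100A14 in 2 of 13. The log2 difference from S100A6 ranged over 14 alternatives from -0.47 to -0.39 for S100A11, from -0.40 to -0.23 for S100A10, from -0.53 to -0.43 for S100A2 and from -0.30 to -0.11 for S100A16 (-0.11 without knockdown replicate 3). Without TMM the median of all genes moved by 0.078. S100A3, S100A4 and S100A14 rest on few counts and S100P on none.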
